A study of Mus musculus with 2 samples.

Results

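The genes described here are the 40 listed members of the TGF-β, BMP and activin pathway, taken from the 22322 genes of an expression table of liver macrophages. They were chosen by gene name for their known roles as ligands, receptors, SMADs and regulators, and the rule itself uses no measured value, although earlier results of these data were known when the list was drawn up. All 40 were present in the table, with Lrrc33 matched through its current symbol, Nrros. The data comprised 1 library from FABP7 KO mice and 1 library from WT mice, both C57BL/6, male and 6 to 8 weeks old. Mice of both genotypes had received 500000 cells of the mouse colon carcinoma line MC38 in the spleen, in 100 µl of PBS. On day 10 the liver with metastases was perfused and digested, and macrophages were selected by their surface protein F4/80. The knockout was systemic and thus not limited to macrophages, and the genotype field of the KO sample reads knockdown, while its title reads KO. The sources used here do not say how many mice contributed to a library.

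TGF-β, BMPs and activins are secreted dimers that bind pairs of type I and type II serine/threonine kinase receptors. TGF-β and activin receptors phosphorylate SMAD2 and SMAD3, BMP receptors phosphorylate SMAD1, SMAD5 and SMAD9, and both groups enter the nucleus with the shared partner SMAD4. TGF-β is secreted in a latent complex that has to be held on a cell or in the matrix and then opened. In mouse liver, signals of this family from stellate and sinusoidal endothelial cells take part in the maintenance of Kupffer cells, the resident macrophages, among them the BMP9 and BMP10 signal through the receptor ALK1, encoded by Acvrl1.

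Levels are given in FPKM, fragments scaled by transcript length and by the size of the library, as deposited, so that they can be compared between genes. With 1 library per genotype there is no replicate error, no test and no p-value, and each difference below is one between these libraries. The log2 ratio is that of KO FPKM over WT FPKM with a pseudocount of 1 FPKM on both sides, which shrinks the ratios of low genes. Genes had to reach a floor of 1 FPKM in at least 1 library, as 10764 of all genes did. A gene was counted as past a size rule at 1.5-fold or 2-fold on this scale. The total number of fragments is not in the files, and was estimated from the spacing of low values at about 17975000 in the KO and 18075000 in the WT library. From these totals a 95% counting interval (exact, Clopper-Pearson) was derived for each log2 fold without the pseudocount, and it covers counting error alone, not differences between mice.

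Fabp7 itself was at 0.69 FPKM in the KO library and at 354 FPKM in the WT library. Macrophage and Kupffer cell markers were abundant in both, with Adgre1, which encodes F4/80, at 925 FPKM in KO and 864 FPKM in WT macrophages, and Clec4f at 4156 and 3188 FPKM in the same order. The 12 pan-macrophage markers had a median log2 ratio of 0.27 and the 11 Kupffer cell markers one of 0.12. The Kupffer cell markers did not share a direction, with 7 above and 4 below 0 and ratios from -0.95 to 0.43. Marco (-0.95) and Cd163 (-0.80) were at least 1.5-fold lower in the KO library, and none was at least 1.5-fold higher. Cd5l, the most abundant of the 11, had a log2 ratio of -0.16, and Clec4f one of 0.38. Markers of several other liver and blood cells were higher in the KO library, with medians of 1.41 for 17 sinusoidal endothelial markers, 0.82 for 16 hepatocyte markers, and, among those at the floor, 0.99 for 8 of 14 stellate cell and fibroblast markers and 1.60 for 6 of 11 neutrophil markers. The summed level of the endothelial markers was 405 FPKM in the KO and 221 FPKM in the WT library, and that of the stellate markers was 163.5 and 67.7 FPKM, with none of these markers at 0. Among those at the floor, the medians were 1.04 for 4 of 7 B and plasma cell markers, 0.34 for 5 of 11 T and NK cell markers and -0.24 for 3 of 6 epithelial markers, and the 1 of 5 platelet markers was at 0.74. Some markers were at the floor in the KO library alone and could only have been higher there. They were 3 endothelial, 4 stellate, 2 neutrophil, 2 B and plasma, and 2 T and NK cell markers. Among markers of these lists at the floor in both libraries, the medians were 1.28, 1.19, 1.56, 0.93 and 0.04 in the same order. The 8 proliferation markers were all lower in the KO library, with a median of -2.71. In such bulk libraries, a different share of a cell type and a different amount of RNA per cell cannot be told apart.

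Most pathway genes were somewhat higher in the FABP7 KO library than in the WT library, and none reached a 2-fold difference on the scale with a pseudocount of 1 FPKM. Of the 40 members, 25 reached the floor, 22 of them in both libraries, and the other 3 (Tgfbr3, Bmp5 and Lrrc32) in the KO library alone. Among the 22 members at the floor in both, 16 had a log2 ratio above 0 and 6 below 0, 1 of which (Smurf2) was above 0 when the KO library was rescaled, where 48.9% of all 10053 genes at the floor in both were above 0. Their median log2 ratio was 0.25, against -0.008 for all such genes, and close to the 0.27 of the pan-macrophage markers. Over all 40 members without a floor, 31 ratios were above 0 and 9 below 0, where 53.4% of the 15188 detected genes were above 0. No member was at least 2-fold higher or lower on this scale, as 5.17% of the genes at the floor were, and this count rests on the pseudocount. With a pseudocount of 0.1 FPKM, 2 members, Tgfbr3 and Bmp5, were at least 2-fold higher, beside 5.22% of all genes, and their counting intervals without a pseudocount, 1.72 to 2.86 and 1.32 to 2.83 in log2, lay wholly above 2-fold. At 1.5-fold, 1 of the 22 was higher (Nrros), against 5.9% of all genes, and 1 was lower (Tgfbi), against 6.65%, so that both shares were near the background. The 3 members at the floor in the KO library alone could only have been higher there, and with Tgfbr3 and Bmp5 the count at 1.5-fold was 3 of 25 higher and 1 of 25 lower, beside 8.03% and 7.38% of all genes at the floor.

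**Figure D1:**
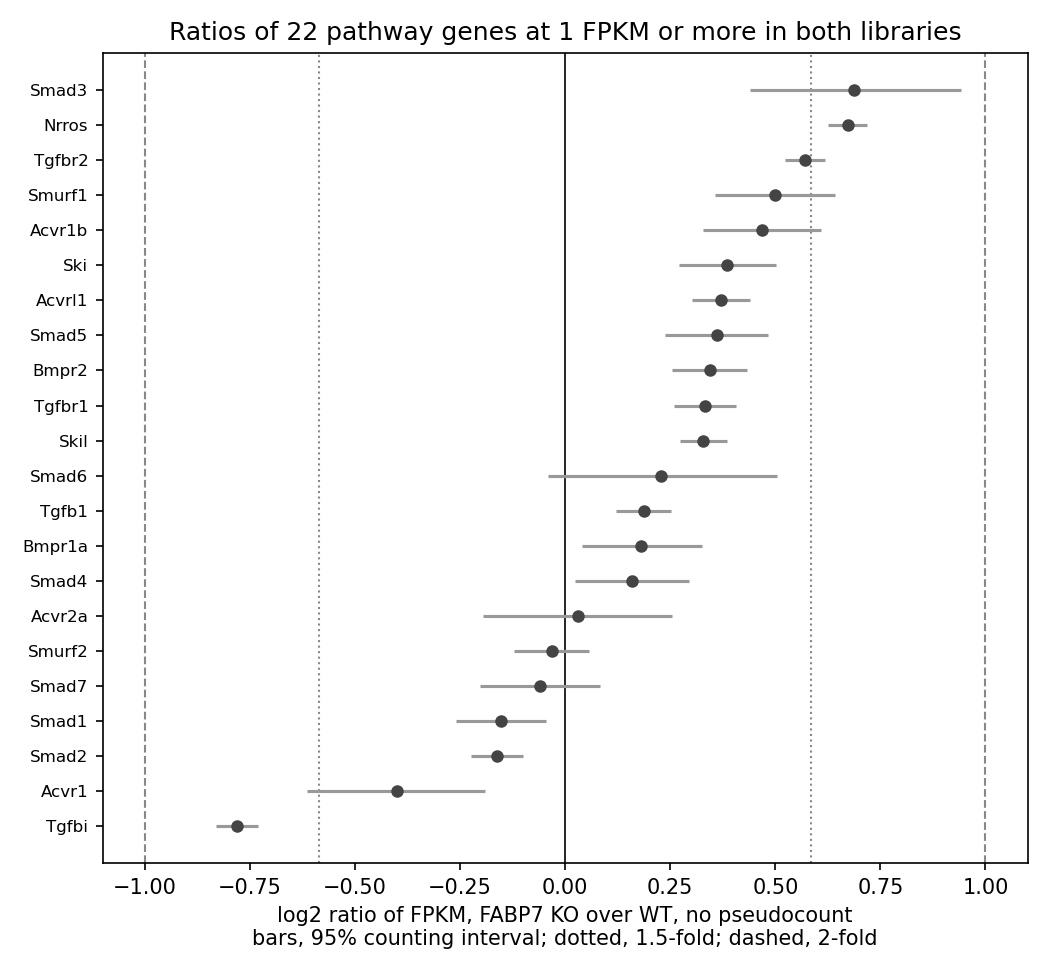
The x axis gives the log2 ratio, KO over WT, of FPKM without a pseudocount for the 22 pathway genes that reached 1 FPKM in both libraries (rows, sorted), with the 95% counting interval as bars, which leaves out differences between mice. Most points lie right of 0, Nrros and Smad3 pass the dotted 1.5-fold line on this scale, and Tgfbi alone passes it on the left.

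The ratios of all genes also moved with transcript length in these libraries. Among genes at the floor in both, the median log2 ratio was -0.17 for the 435 genes with a longest transcript of up to 1000 bases and 0.08 for the 1384 genes with one above 6000 bases. The 22 members had longest transcripts of 2573 to 12899 bases, and the 6686 genes in that range had a median of 0.03, with 53.2% above 0. The median of the members was therefore above that of genes of similar length, and the part of length in it was not tested further.

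Tgfb1 (ENSMUSG00000002603), which encodes the latent cytokine TGF-β1, was by far the most abundant ligand. It was at 88.4 FPKM in the KO library and at 77.6 FPKM in the WT library, a log2 ratio of 0.18 and a counting interval of 0.12 to 0.25. Relative to macrophage genes its direction depended on the gene chosen. Tgfb1 stood at 2.79 FPKM in KO and 3.27 FPKM in WT macrophages per 100 FPKM of the macrophage gene Csf1r. Per 100 FPKM of Adgre1, Tgfb1 stood at 9.55 and 8.98 FPKM in the same order. It ranked 772nd of all genes in KO and 934th in WT macrophages, and made up 95.1% and 97.0% of the summed FPKM of the 11 ligand genes among the members. Tgfb3 was at 0.90 FPKM in KO and 0.88 FPKM in WT macrophages, and Tgfb2 at 0.05 and 0.06 FPKM in the same order, so that the TGF-β ligand mRNA of both libraries was almost all Tgfb1.

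Latent TGF-β1 is tethered on myeloid cells by LRRC33, the product of Nrros (ENSMUSG00000052384), and on the scale with a pseudocount Nrros had the highest ratio among the members at the floor in both libraries, while Smad3, a low gene, had a slightly higher fold without one. It was at 149.7 FPKM in KO and at 94.0 FPKM in WT macrophages, 1.59-fold higher, with a log2 ratio of 0.67 and a counting interval of 0.63 to 0.72. Per FPKM of Tgfb1 there were 1.69 FPKM of Nrros in the KO and 1.21 FPKM in the WT library. Relative to macrophage genes the difference depended on the gene chosen. Per 100 FPKM of Csf1r, a growth factor receptor gene of macrophages, Nrros stood at 4.72 FPKM in KO and 3.96 FPKM in WT macrophages, and per 100 FPKM of Adgre1 at 16.2 and 10.9 FPKM in the same order. Lrrc32, which encodes GARP, the counterpart of LRRC33 on regulatory T cells and endothelial cells, was at 1.09 FPKM in KO and 0.62 FPKM in WT macrophages. The latent TGF-β binding proteins of the matrix stood lower still, with Ltbp1 at 0.30 FPKM in KO and 0.22 FPKM in WT macrophages and Ltbp3 at 0.44 and 0.30 FPKM in the same order, and their counting intervals spanned 0.

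The TGF-β receptor genes were higher in the KO library. Tgfbr2 (ENSMUSG00000032440), the type II receptor that binds TGF-β and starts the signal, was at 61.9 FPKM in KO and 41.7 FPKM in WT macrophages, 1.49-fold higher, with a log2 ratio of 0.56 and a counting interval of 0.52 to 0.62. Tgfbr1 (ENSMUSG00000007613), the type I receptor ALK5 that phosphorylates SMAD2 and SMAD3, was at 31.8 FPKM in KO and 25.3 FPKM in WT macrophages, with a log2 ratio of 0.32 and an interval of 0.26 to 0.41. The ratio of Tgfbr2 to Tgfbr1 was thus 1.95 in the KO and 1.65 in the WT library. Tgfbr2 stood at 1.95 FPKM per 100 FPKM of Csf1r in KO and 1.76 FPKM in WT macrophages, and at 6.69 and 4.82 FPKM per 100 FPKM of Adgre1. Tgfbr3, the coreceptor betaglycan, was low in both, at 1.44 FPKM in KO and 0.30 FPKM in WT macrophages, which is about 158 and 33 fragments.

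Tgfbi (ENSMUSG00000035493), which encodes a secreted matrix protein named for its induction by TGF-β, was the most abundant member in WT macrophages and the one with the lowest ratio. It was at 97.7 FPKM in the KO library and at 168 FPKM in the WT library, a fold of 0.582 and a log2 ratio of -0.77, with a counting interval of -0.83 to -0.73. There were 3.08 FPKM of Tgfbi per 100 FPKM of Csf1r in KO and 7.08 FPKM in WT macrophages, and 10.6 and 19.4 FPKM per 100 FPKM of Adgre1, so that Tgfbi was lower in the KO library by either measure. Per FPKM of Tgfb1 there were 1.11 FPKM of Tgfbi in KO and 2.16 FPKM in WT macrophages. Tgfbi is known to be expressed by monocyte-derived macrophages, and some monocyte markers were at least 1.5-fold lower beside it. Plac8 was at 427 FPKM in KO and 908 FPKM in WT macrophages, and Ly6c2 at 4.63 and 9.92 FPKM in the same order. Others did not move with them, as Ccr2 was at 7.63 FPKM in KO and 8.08 FPKM in WT macrophages, Cx3cr1 at 4.80 and 3.98 FPKM, and Chil3 at 2.64 and 1.47 FPKM. Of the 6 monocyte markers at the floor, 2 were above and 4 below 0, with a median log2 ratio of -0.51. Over all 8 monocyte markers, with the 2 below the floor, 4 were above and 4 below 0, with a median log2 ratio of 0.007. Their summed level was 456 FPKM in the KO and 949 FPKM in the WT library, nearly all of it Plac8, none of them was at 0, and the part of monocyte-derived cells in the Tgfbi difference was not tested.

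**Figure D2:**
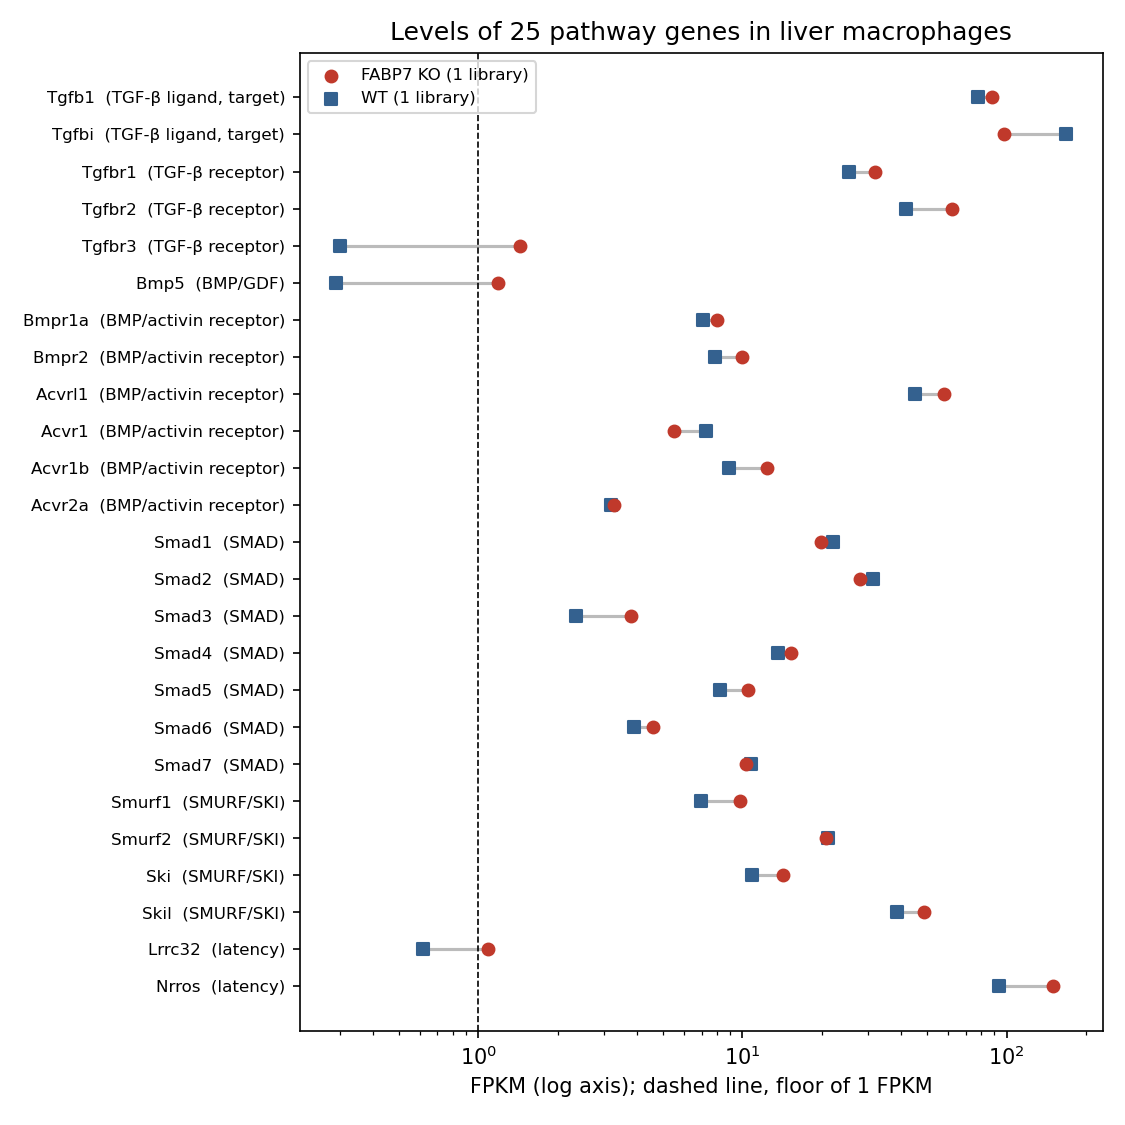
FPKM on a log axis for the 25 pathway genes that reached 1 FPKM in either library (rows, with their role), in the FABP7 KO library (red circles) and the WT library (blue squares), joined by a grey line. Tgfb1, Nrros, Tgfbi, Tgfbr2 and Acvrl1 stand above 40 FPKM in both libraries, and Tgfbr3, Bmp5 and Lrrc32 cross the dashed floor of 1 FPKM in the KO library alone.

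The stretches upstream of the start sites of the 3 members with the largest ratios at the floor in both libraries on the scale with a pseudocount of 1 FPKM, Tgfbi in one direction and Nrros and Tgfbr2 in the other, are shown because SMAD proteins are known to bind short elements in promoters of this pathway. Each is the 250 bases before the start given by RefSeq, build GRCm38.p6, read 5′ to 3′ on the strand of the gene. Tgfbi lies at chr13:56609336-56609585 on the plus strand, Nrros at chr16:32165595-32165844 on the minus strand, and Tgfbr2 at chr9:116175364-116175613 on the minus strand. Capitals mark the SMAD elements CAGAC or its complement GTCTG, and GGCGCC.
Tgfbi: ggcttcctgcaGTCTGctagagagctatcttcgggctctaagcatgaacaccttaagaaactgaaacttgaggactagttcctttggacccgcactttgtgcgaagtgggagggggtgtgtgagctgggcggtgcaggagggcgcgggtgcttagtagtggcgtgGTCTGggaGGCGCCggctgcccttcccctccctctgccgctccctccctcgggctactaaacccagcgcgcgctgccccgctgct
Nrros: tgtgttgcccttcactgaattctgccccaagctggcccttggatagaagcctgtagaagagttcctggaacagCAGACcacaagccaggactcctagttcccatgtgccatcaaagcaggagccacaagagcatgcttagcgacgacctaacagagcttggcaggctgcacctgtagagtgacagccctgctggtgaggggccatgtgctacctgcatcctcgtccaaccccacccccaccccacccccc
Tgfbr2: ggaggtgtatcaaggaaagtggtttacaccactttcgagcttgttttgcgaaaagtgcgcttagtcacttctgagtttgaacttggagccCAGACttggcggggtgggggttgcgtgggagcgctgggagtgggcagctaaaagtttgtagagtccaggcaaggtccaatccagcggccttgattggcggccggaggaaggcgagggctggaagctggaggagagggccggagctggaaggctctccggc

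The Tgfbi stretch held 2 matches to CAGAC, at -239 and -85 from the start, and 1 match to GGCGCC at -77, while Nrros held 1 match to CAGAC at -177 and Tgfbr2 1 at -160. CAGAC, searched on both strands, is common: 42.2% of the 32851 RefSeq stretches of this length held it, and 18 of the 34 stretches of 29 member genes. Members on chromosome 18 were left out of the 34, which do not cover all 40 members. GGCGCC was found in 9.59% of all stretches and in 8 of the 34. The member stretches were also richer in G and C, with a median of 66.6% against 52.4% for all, and the part of base composition in these counts was not tested. The palindrome GTCTAGAC, the site GAGGAAGT of the macrophage factor PU.1 and the AP-1 site TGANTCA were in 0.167%, 2.44% and 6.75% of all stretches and in none of the 34. The 5 motifs do not overlap each other in the stretches shown. A match is a run of letters and was not shown to be bound in these cells.

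Apart from Acvrl1, the BMP and activin receptor genes were expressed at lower levels than Tgfbr1 and Tgfbr2, though most stood above Tgfbr3. Acvrl1 (ENSMUSG00000000530), encoding ALK1, was at 58.0 FPKM in KO and 44.9 FPKM in WT macrophages, with a log2 ratio of 0.36 and a counting interval of 0.30 to 0.44. It accounted for 50.1% of the FPKM of the 5 type I receptor genes in the KO library and for 48.0% in the WT library, so that its share was nearly the same. Tgfbr2 accounted for 81.6% and 78.0% of the 4 type II receptor genes in KO and WT macrophages. Bmpr2, the type II receptor for BMPs, was at 9.98 FPKM in KO and 7.86 FPKM in WT macrophages, with a log2 ratio of 0.31. Acvr1b, the activin type I receptor ALK4, was at 12.4 FPKM in KO and 8.93 FPKM in WT macrophages, with a log2 ratio of 0.43. Bmpr1a, encoding ALK3, was at 8.04 FPKM in KO and 7.09 FPKM in WT macrophages, with a log2 ratio of 0.16. Acvr1, encoding ALK2, was the receptor gene that went the other way, at 5.51 FPKM in KO and 7.27 FPKM in WT macrophages, with a log2 ratio of -0.35 and a counting interval of -0.61 to -0.19. Acvr2a, an activin type II receptor, was at 3.26 FPKM in KO and 3.19 FPKM in WT macrophages, and its counterpart Acvr2b at 0.75 and 0.72 FPKM in the same order, both within counting error.

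Acvrl1 is also an endothelial gene, and the endothelial markers listed above were higher in the KO library. Cdh5, endothelial and a Kupffer cell gene in mouse, was at 450 FPKM in KO and 372 FPKM in WT macrophages, while the 2 most abundant endothelial markers were Stab2, at 118 and 79.9 FPKM in the same order, and Pecam1, at 51.5 and 38.7 FPKM. Genes restricted more closely to endothelium stood lower, with Kdr at 14.9 FPKM in KO and 4.42 FPKM in WT macrophages and Tie1 at 3.65 and 0.69 FPKM. The part of endothelial RNA in the Acvrl1 difference was not tested.

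The SMAD genes did not move together. Smad2 was at 27.8 FPKM in KO and 31.2 FPKM in WT macrophages, with a log2 ratio of -0.16, while Smad3 (ENSMUSG00000032402), the other mediator of TGF-β and activin signals, was at 3.77 and 2.34 FPKM in the same order, 1.61-fold higher in KO, with a log2 ratio of 0.51 and a counting interval of 0.44 to 0.94. Smad2 remained the main form, and the ratio of Smad3 to Smad2 was 0.135 in the KO and 0.0751 in the WT library. On the BMP side, Smad1 was at 19.9 FPKM in KO and 22.1 FPKM in WT macrophages, with a log2 ratio of -0.14. Smad5 was at 10.5 FPKM in KO and 8.20 FPKM in WT macrophages, with a log2 ratio of 0.33, and the ratio of Smad5 to Smad1 was 0.53 in the KO and 0.372 in the WT library. Smad9 was at 0.89 FPKM in KO and 0.41 FPKM in WT macrophages. Summed, the forms for TGF-β and activin stood at 1.01 times those for BMPs in the KO library and at 1.09 times in the WT library. Smad4, the shared partner, was at 15.2 FPKM in KO and 13.6 FPKM in WT macrophages, with a log2 ratio of 0.15. The inhibitory SMADs were within counting error, with Smad7 at 10.3 FPKM in KO and 10.8 FPKM in WT macrophages and Smad6 at 4.57 and 3.90 FPKM in the same order.

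Among the negative regulators, Skil (ENSMUSG00000027660), the SMAD corepressor SnoN, was the most abundant, at 48.5 FPKM in KO and 38.6 FPKM in WT macrophages, with a log2 ratio of 0.32 and a counting interval of 0.27 to 0.38. Its relative Ski was at 14.2 FPKM in KO and 10.9 FPKM in WT macrophages, with a log2 ratio of 0.36, so that both corepressors were higher by a similar amount. Smurf1, a ubiquitin ligase for SMADs and receptors, was at 9.82 FPKM in KO and 6.95 FPKM in WT macrophages, with a log2 ratio of 0.44 and an interval of 0.36 to 0.64. Smurf2, the other ligase of this kind, was at 20.7 FPKM in KO and 21.1 FPKM in WT macrophages, with an interval of -0.12 to 0.06.

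Among the members, the BMP ligands, activin subunits and follistatin were at or below 1.19 FPKM in both libraries, and 6 of the 15 members below the floor had a counting interval wholly above 0. Of the 4411 detected genes below the floor with an annotated length, 17% had such an interval. Bmp5 was at 1.19 FPKM in KO and 0.29 FPKM in WT macrophages, about 82 and 20 fragments, with a log2 ratio of 0.76. Bmp6, which in mouse liver is made mainly by sinusoidal endothelial cells and induces hepcidin, was at 0.74 FPKM in KO and 0.26 FPKM in WT macrophages, and Inhbb, the activin B subunit, at 0.60 and 0.18 FPKM in the same order. Bmp4 was at 0.27 FPKM in the KO library and was listed at 0 in the WT library. Bmp1, a metalloproteinase and not a ligand in spite of its name, was at 0.26 FPKM in KO and 0.07 FPKM in WT macrophages, and Inhba, the activin A subunit, at 0.16 and 0.06 FPKM. With Smad9, these 5 (Bmp6, Inhbb, Bmp4, Bmp1 and Inhba) make up the 6, and the stellate and endothelial markers were higher beside them, by medians of 0.99 and 1.41. Among such markers at the floor in both libraries, the medians were 1.19 and 1.28 in the same order. The most abundant stellate markers were Ecm1, at 99.0 FPKM in KO and 44.0 FPKM in WT macrophages, and Dcn. The part of those cells in the differences was not tested. The remaining ones were within counting error, with Gdf15, a stress-induced and distant member of the family, at 0.44 FPKM in KO and 0.56 FPKM in WT macrophages, Gdf10 at 0.21 and 0.14 FPKM, the activin-binding follistatin gene Fst at 0.02 and 0.06 FPKM, and Bmp7 at 0.03 FPKM in KO and listed at 0 in WT.

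**Figure D3:**
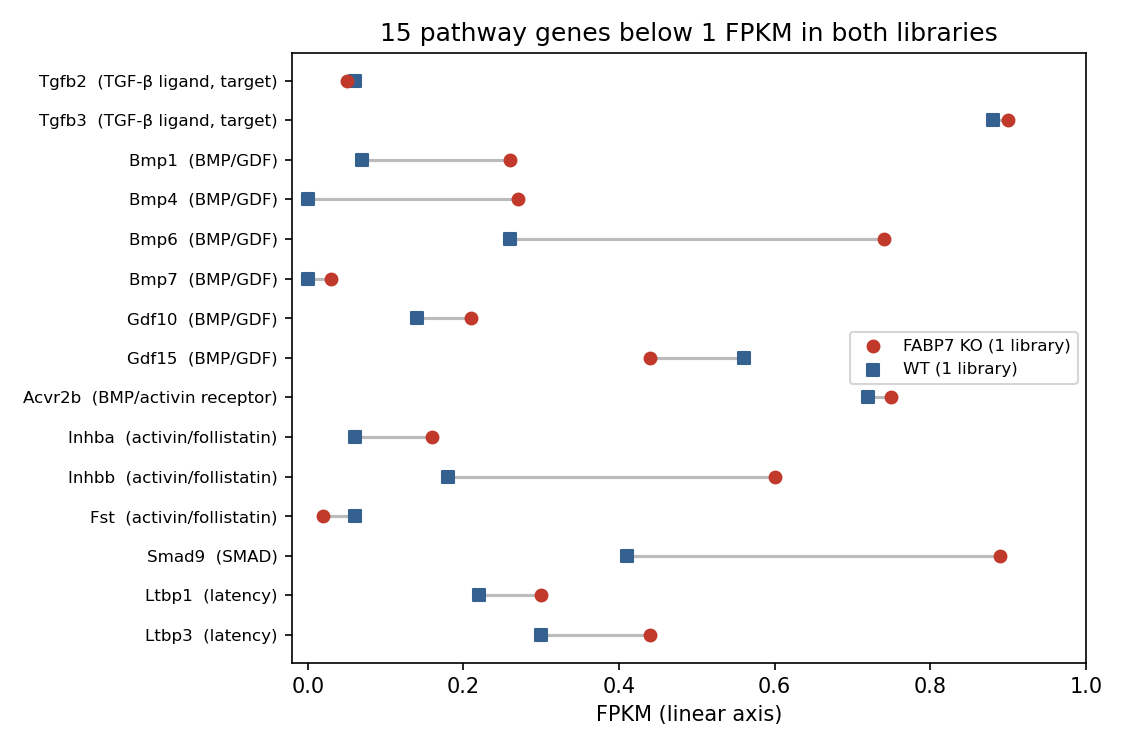
FPKM on a linear axis for the 15 pathway genes below 1 FPKM in both libraries (rows, with their role), in the FABP7 KO library (red circles) and the WT library (blue squares), joined by a grey line. Bmp6, Inhbb, Smad9, Bmp4, Bmp1 and Inhba stand to the right in the KO library, while Tgfb2, Gdf15 and Fst are the 3 that stand to the left.

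A further 108 genes of the pathway were listed, of which 51 reached the floor and 46 did so in both libraries. Of these 46, 31 had a ratio above 0 and 15 below 0, with a median of 0.12. Of all 10053 genes at the floor in both, 48.9% were above 0, with a median of -0.008. At the floor, 6 of 51 were at least 2-fold higher and none was at least 2-fold lower, beside 2.21% and 2.95% of all genes. Of the 51, 4 (Bmp2 and Ltbp4 among them) were at the floor in the KO library alone and could only have been higher there. Likewise, 1 was at the floor in the WT library alone and could only have been lower in KO. The 6 were the ligand Bmp2, at 4.65 FPKM in KO and 0.95 FPKM in WT macrophages, the endothelial coreceptor Eng at 21.1 and 9.67 FPKM, the matrix proteoglycans Dcn at 37.0 and 13.5 FPKM and Bgn at 20.2 and 7.92 FPKM, the latency protein Ltbp4 at 3.45 and 0.94 FPKM, and the metalloproteinase Mmp9 at 4.98 and 1.18 FPKM, each in the same order. Eng is on the endothelial and Dcn on the stellate marker list used here. Gdf2, which encodes the ALK1 ligand BMP9, was at 2.22 FPKM in KO and 0.79 FPKM in WT macrophages, and the ligand gene Gdf3 at 1.20 and 1.56 FPKM in the same order. The BMP coreceptor gene Rgmb was at 4.94 FPKM in KO and 4.52 FPKM in WT macrophages, and Neo1, a receptor for its family, at 0.32 and 0.24 FPKM, both within counting error.

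Among 14 genes of TGF-β activation and latency, 6 were below the floor, among them the integrin chain genes Itgb6, listed at 0 in both libraries, and Itgb8, at 0.01 FPKM in KO and listed at 0 in WT macrophages. The most abundant were other integrin chain genes, with Itgb5 at 167 FPKM in KO and 111 FPKM in WT macrophages, Itgav at 41.0 and 28.3 FPKM, and Itgb1 at 184 and 183 FPKM in the same order. The extracellular BMP modulator Twsg1 went the other way, at 4.19 FPKM in KO and 7.26 FPKM in WT macrophages, with a log2 ratio of -0.67. Of 25 intracellular regulators, 22 were at the floor with 14 above 0 and 8 below 0. Among all 10764 genes at the floor, 5413 were above and 5333 below 0. The SMAD corepressor Tgif1 was highest among the regulators, at 60.5 FPKM in KO and 35.0 FPKM in WT macrophages, a log2 ratio of 0.77. Usp9x was at 42.7 FPKM in KO and 36.7 FPKM in WT macrophages, and Usp4 at 38.2 and 36.4 FPKM, both being deubiquitinases of the pathway.

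Most genes known to be induced by BMPs had a ratio above 0, while those known to be induced by TGF-β did not share a direction. Of the 8 BMP target genes, 5 were at the floor, 4 of them above 0, with a median log2 ratio of 0.52. All 5 were at the floor in both libraries, where 48.9% of all genes were above 0. The median was that of Hamp, at 3.12 FPKM in KO and 1.88 FPKM in WT macrophages. That is about 23 and 14 fragments, with a counting interval of -0.30 to 1.80. Hey1 was at 4.59 FPKM in KO and 2.39 FPKM in WT macrophages, a log2 ratio of 0.72. Id3, an inhibitor of DNA binding that Kupffer cells need, was at 136 FPKM in KO and 85.9 FPKM in WT macrophages, a log2 ratio of 0.65. By contrast, Id1 was at 62.6 and 59.0 FPKM and Id2 at 138 and 139 FPKM in the same order, both within counting error. Of the 15 TGF-β target genes, 8 were at the floor, 4 above and 4 below 0, with a median of -0.05. The 3 most abundant were lower in KO, with the transglutaminase gene Tgm2 at 375 FPKM in KO and 450.2 FPKM in WT macrophages. The cell cycle inhibitor gene Cdkn1a was at 10.7 and 20.6 FPKM, and Bhlhe40 at 9.40 and 11.3 FPKM, in the same order. The 4 above 0, at lower levels, were Tsc22d1, Col3a1, Fn1 and Ccn1. In many cell types the target genes of both lists answer to other signals too.

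**Figure D4:**
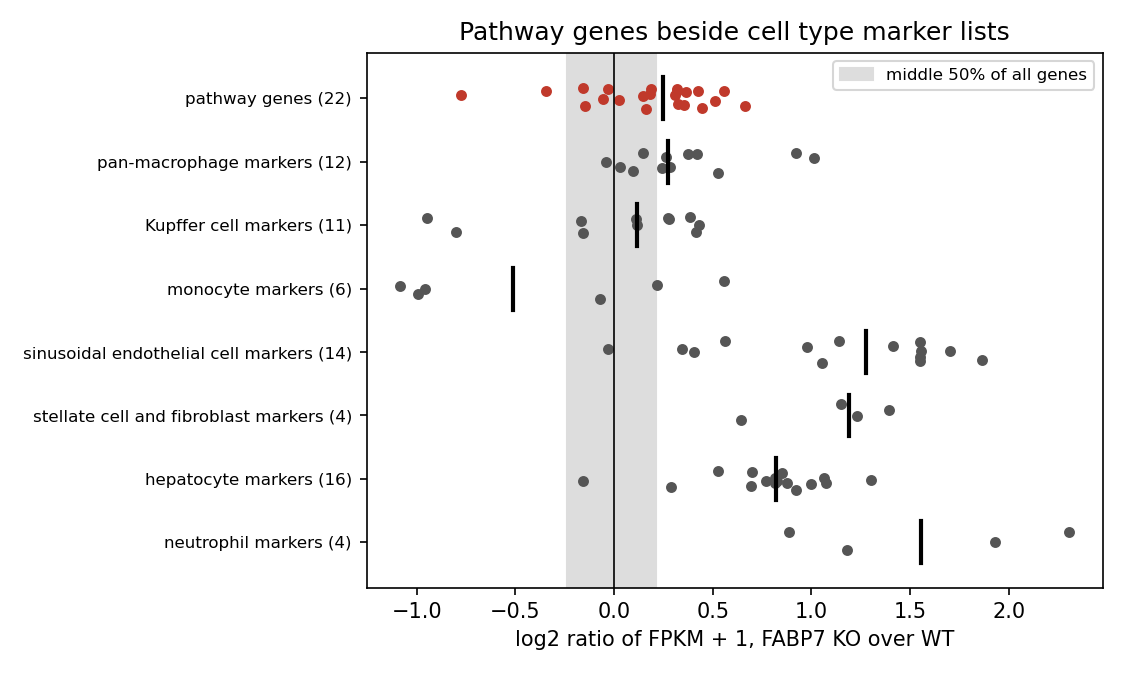
The x axis gives the log2 ratio, KO over WT, of FPKM + 1 for the 22 pathway genes (red) and for cell type markers (grey) that reached 1 FPKM in both libraries, with the median of each list as a black bar and the middle 50% of all genes as a grey band. The pathway genes have their median at 0.25, close to the pan-macrophage markers at 0.27 and left of the endothelial, stellate, hepatocyte and neutrophil markers. The medians of the Kupffer cell markers at 0.12 and of the monocyte markers at -0.51 lie left of that of the pathway genes.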

How the data were processed

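Macrophage mRNA, enriched with oligo(dT) beads, was sequenced on the Illumina platform, and the authors deposited FPKM values with 2 decimals for 22322 genes in each library. TopHat2 2.1.1 and Bowtie2 2.2.8 are named, without a role, in the processing notes of the submitters. The build, annotation, counting tool and use of strand were not given in the sources used here. FPKM depends on the authors' transcript lengths and on the total of each library, so abundant genes shift all others. The 2 tables of single libraries held the same values as the joint table.

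Symbols were assigned through Ensembl IDs with GENCODE M21 for 22267 IDs, the highest row was kept where rows shared a symbol, and no member had more than 1 row. Depth was estimated from genes with a single transcript of 300 to 1500 bases, searching from 10000000 to 25000000 fragments, a range chosen with an earlier estimate known. At the best value, 91.7% of 192 low KO and 91.2% of 204 low WT values were whole to within 0.15, and chance would give 30%. Fragments per gene used the longest GENCODE transcript and are approximate. Promoter stretches are from RefSeq, GRCm38.p6. By rule, all members are named, and of the other pathway genes those past 2-fold and the 3 highest of each list. Of the marker lists beside a result the 2 highest are named, except 1 that is not reported here, and other markers and the motifs were chosen after values were seen. Members and lists were chosen with earlier results of these data known. Alternatives were 2 scalings of the KO library, summed rows, a floor raised to 5 FPKM or left out, and a pseudocount of 0.1 FPKM. The depth estimate was tested on simulated data, as were the 2-fold rule and the counting interval for genes of at least 5 FPKM on average. Intervals of lower genes were not. Python 3.11.15, NumPy 2.4.6, pandas 2.3.3, SciPy 1.17.1 and Matplotlib 3.10.9 were used.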

Additional observations from a re-analysis of the deposited data

How the results depend on the processing

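With a pseudocount of 0.1 FPKM, 2 members were at least 2-fold higher (Tgfbr3 and Bmp5), beside 5.22% of all genes at the floor. At 1.5-fold, 5 were higher, Smad3 and Lrrc32 being added, beside 11.5% of all genes at the floor. The median log2 ratio of the 25 members was 0.33. With a floor of 5 FPKM, 1 member was at least 1.5-fold higher, since 19 members were left, beside 5.42% of all genes at that floor. With the KO library scaled by totals without hepatocyte marker, hemoglobin and mitochondrially encoded genes, the median was 0.37, against 0.32 as deposited. That scaling and the one by the median ratio, which raise log2 ratios by up to 0.05 and 0.04 and less for low genes, brought Tgfbr2 past 1.5-fold (0.61 and 0.60) and put Smurf2 above 0 (0.02 and 0.005). Without a floor the median over all 40 members was 0.18. Tgfbi and Nrros kept their side of 1.5-fold under each of the 6 alternatives. Only the 2 scalings of the KO library could change the sign of a member ratio, and they did so for Smurf2 alone. The other floors and the summed rows left each member ratio as it was, and a smaller pseudocount cannot change a sign. Counting error limits the members below 1 FPKM, and differences between mice cannot be estimated from 1 library per genotype. No paired analysis was possible because each genotype has 1 library.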
